A study of Homo sapiens with 7 samples.

Results

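The small nucleolar RNA host genes (SNHG genes) and GAS5 were examined in Huh-7, a human liver cancer (hepatocellular carcinoma) cell line, after depletion of the RNA-binding protein IGF2BP1. Members were the genes whose symbol is SNHG followed by a number, without a further suffix, together with GAS5. This rule found 23 of the 58174 genes listed, and GAS5-AS1 was left out by it. The members carried 4 biotypes in the deposited table: 10 were processed transcripts, 7 were lincRNAs, 5 were antisense genes and 1 (SNHG3) was sense intronic. Total RNA depleted of ribosomal RNA had been sequenced 72 h after transfection of control siRNAs (siC, 3 libraries) or of pooled siRNAs that target the IGF2BP1 transcript (siImp1, 4 libraries). Both groups were the same unmodified line, so the transfected siRNA is the only difference the labels give. The labels do not say whether the replicates were separate cultures, so p-values measure only the spread between these libraries, which may be technical.

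SNHG genes carry small nucleolar RNAs in their introns. These RNAs (snoRNAs) are trimmed from the spliced introns and guide the chemical modification of ribosomal RNA, those of the C/D box class (SNORD) ribose methylation and those of the H/ACA box class (SNORA) pseudouridylation, while the related scaRNAs (SCARNA) act on the small nuclear RNAs of the spliceosome. The spliced exons are left as a long noncoding RNA, and for several hosts, GAS5 among them, this RNA is exported and degraded by nonsense-mediated decay. Many host genes begin with a C followed by further pyrimidines, a 5′ terminal oligopyrimidine (TOP) start that they share with the mRNAs of ribosomal proteins.

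The annotated starts of the members differed in this feature. RefSeq gave a start for 18 members (build GRCh38.p14), and 9 of them (50%) had a run of at least 5 C or T that began with a C lying within 5 bases of the start, on the strand of the gene only. The same run was found at 4939 of all 27305 starts in the same RefSeq table (18.1%). The following windows hold the 10 bases before the start and the 20 bases from it on, 5′ to 3′, with that run in capitals. They are shown for the 6 members whose levels are described first and, for contrast, for GAS5 and SNHG5.
SNHG16 (chr17:76557754-76557783, plus strand): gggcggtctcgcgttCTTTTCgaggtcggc
SNHG8 (chr4:118278752-118278781, plus strand): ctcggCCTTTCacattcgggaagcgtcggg
SNHG12 (chr1:28581854-28581883, minus strand): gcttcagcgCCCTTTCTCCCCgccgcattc
SNHG19 (chr16:2155339-2155368, minus strand): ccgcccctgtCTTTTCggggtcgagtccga
SNHG1 (chr11:62855866-62855895, minus strand): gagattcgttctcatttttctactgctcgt
SNHG3 (chr1:28505933-28505962, plus strand): gtgagtttctgattctctaactgcgcatgc
SNHG5 (chr6:85678714-85678743, minus strand): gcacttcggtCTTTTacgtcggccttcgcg
GAS5 (chr1:173869026-173869055, minus strand): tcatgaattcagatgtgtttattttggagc
The run was present in SNHG16, SNHG8, SNHG12, SNHG19 and SNHG5 and was not found in the windows of SNHG1, SNHG3 and GAS5. These are annotated starts, not starts measured in Huh-7 cells, and those of RefSeq and of GENCODE v44 differ for several members. The windows of SNHG3 and GAS5 lie wholly upstream of these genes as GENCODE v44 places them. There SNHG3 starts at chr1:28505980 and GAS5, on the minus strand, at chr1:173868882. The window of SNHG1 lies wholly inside its gene, which starts at chr11:62855953 on the minus strand there. The missing run in the windows of SNHG1, SNHG3 and GAS5 therefore cannot show that their RNAs lack a TOP start. The count of 9 of 18 likewise rests on the RefSeq starts alone.

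Abundance is given as FPKM (fragments scaled to gene length and library size). Libraries held 12826550 to 33212205 reads on genes. IGF2BP1 itself measured 81.9, 80.4 and 84.4 FPKM in siC and 15.6, 15.7, 16.6 and 15.3 FPKM in siImp1, 19.2% of the siC mean (log2 change -2.37, limma, adjusted p = 1.16e-05). All 8 hepatocyte markers examined were detected, among them ALB at a mean of 1814 FPKM in siC and 1993 FPKM in siImp1, and among 6 markers of other cells 3 (PTPRC, CD3E and CD68) had means under 0.01 FPKM in both groups, while PECAM1 was the highest of them at 2.81 FPKM in siC and 3.01 FPKM in siImp1. One library stood apart: siC replicate 3 deviated most from its group mean over all genes (SD 0.466 on the log2 scale, against 0.296 to 0.379 in the others). The correlation of these deviations with the GC content of the genes (Spearman's rho across genes, which are not independent replicates) was -0.43 in this library. It was 0.43 in siC replicate 1, 0.30 in siC replicate 2 and between -0.39 and 0.26 in siImp1. Deviations are taken from the group mean, so those of the 3 siC libraries depend on each other. Their correlations therefore cannot show which siC library departed in GC content. Values of members and their small RNAs that moved by over 1.5 times without siC replicate 3 are given both ways.

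Of the 23 members, 20 reached a mean of 1 FPKM over the 7 libraries and were tested. SNHG14, the host of the SNORD115 and SNORD116 clusters of the imprinted Prader-Willi region, had at most 2 reads in a library. SNHG18 and SNHG23, which GENCODE v44 names MEG8, were listed at 0 in every library. The tested members spanned over 2 orders of magnitude in control cells. In siC, SNHG8 was the most abundant member (mean 146 FPKM ± 12.1, SD, n = 3), followed by SNHG16 (69.7 ± 0.419), GAS5 (67.7 ± 4.62), SNHG3 (64.5 ± 12.2) and SNHG6 (46.6 ± 14.7). SNHG16, GAS5 and SNHG3 did not differ in level beyond their spread in siC, since their ranges overlapped. In siImp1 this order was different: SNHG8 (118 ± 6.01, SD, n = 4) was followed by GAS5 (67.1 ± 1.88), SNHG16 (51.4 ± 2.18), SNHG6 (44.4 ± 2.70) and SNHG3 (40.9 ± 1.1). There the lowest GAS5 value, 64.8 FPKM, lay above the highest SNHG16 value, 52.8 FPKM. At the low end, SNHG20 measured 1.16 FPKM and SNHG21 1.27 FPKM on average in siC.

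**Figure D1:**
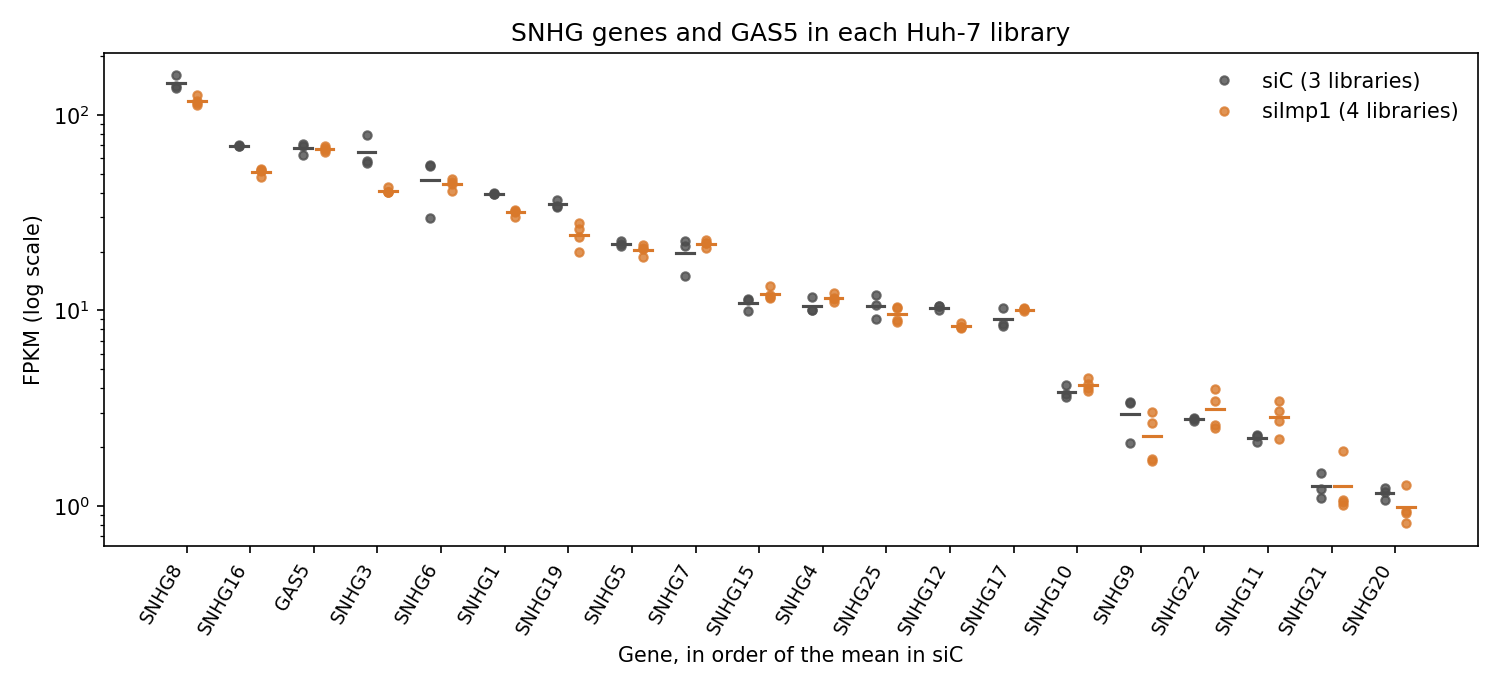
FPKM on a log axis for the 20 members tested, in order of their siC mean. Each point is 1 library (grey, siC, n = 3; orange, siImp1, n = 4) and bars are group means. SNHG16, SNHG3, SNHG1, SNHG19, SNHG12 and SNHG8 show no overlap between groups with siImp1 lower, and in SNHG6 and SNHG7 one siC library lies far below the other two.

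The comparison addresses which host genes changed in level upon the depletion of IGF2BP1. Summed over the members, FPKM was 575, 572 and 580 in siC and 483, 465, 490 and 509 in siImp1. All 4 siImp1 sums lay below the 3 siC sums. The members took 0.148% to 0.153% of all reads on genes in siC and 0.129% to 0.135% in siImp1. This sum is carried by few genes, as the 5 most abundant members made up 65.8% to 70.6% of it. In these bulk libraries, fewer cells expressing a gene and less RNA per cell cannot be told apart.

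Tested one by one, 1 of the 20 members fell at an adjusted p of at most 0.01 (limma on log2(FPKM + 0.1), adjusted over all 14839 genes tested), and 0 rose. Over all genes tested, 2.28% fell and 1.65% rose by this rule. By an unadjusted p under 0.05, 6 members were lower and 0 higher, against 14.8% lower and 11% higher over all genes. The groups did not overlap in 6 members with siImp1 below siC, where 15.1% of all genes had such a pattern, and in 1 member with siImp1 above, where 11.9% of all genes did. By mean, 13 members were lower and 7 higher. The median log2 change of the members was -0.07, against -0.02 for all genes tested, -0.03 for protein-coding genes and 0.06 for the other long noncoding genes.

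SNHG16 (ENSG00000163597, chr17:76557727-76670985, plus strand, GRCh38 by GENCODE v44, as for the positions that follow), host of SNORD1A, SNORD1B and SNORD1C, was the member that fell. It measured 69.6, 70.2 and 69.4 FPKM in siC and 51.9, 48.2, 52.8 and 52.6 FPKM in siImp1. The 3 siC values lay within 1 FPKM of each other, and each siImp1 value was lower. This is a log2 change of -0.44 with an SE of 0.0575 (limma, adjusted p = 0.00491, and from 0.000162 to 0.172 over 18 alternative settings). The size of the change was stable over these settings, from -0.45 to -0.37, but the call was made in 8 of 18. It was lost with each of the 6 libraries other than siC replicate 3 left out, where no member was called.

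SNHG1 (ENSG00000255717, chr11:62851978-62855953) carries a series of C/D box snoRNAs, SNORD25 to SNORD28 and SNORD30 among them, in consecutive introns. It measured 39.2, 39.5 and 39.7 FPKM in siC and 29.9, 32.2, 32.8 and 32.1 FPKM in siImp1. The groups were well separated, but the log2 change of -0.31 (95% interval -0.45 to -0.18) did not pass the threshold (limma, adjusted p = 0.0142). SNHG12 (ENSG00000197989, chr1:28578538-28583132), host of SNORA16A, SNORA44, SNORA61 and SNORD99, had a change of the same size. It measured 10.5, 10.0 and 10.5 FPKM in siC and 8.20, 8.27, 8.67 and 8.12 FPKM in siImp1. Again all siImp1 values were the lower ones, with a log2 change of -0.31 (95% interval -0.44 to -0.18, limma, adjusted p = 0.0160).

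SNHG3 (ENSG00000242125, chr1:28505980-28510892) hosts SNORA73A and SNORA73B, the U17 snoRNAs, which act in the processing of ribosomal RNA rather than in its modification. It measured 57.0, 57.9 and 78.6 FPKM in siC and 42.7, 40.3, 40.5 and 40.3 FPKM in siImp1. Its log2 change, -0.64, was the largest decrease by size among the tested members (95% interval -0.92 to -0.36, limma, adjusted p = 0.0167). The value of siC replicate 3 lay far above the other two controls, and without that library the log2 change was -0.49. SNHG3 lies within RCC1 on the same strand, and 242 of its exonic bases are also exonic in RCC1 (GENCODE v44). RCC1 measured 34.5 FPKM in siC and 27.9 FPKM in siImp1 (log2 change -0.30, limma, adjusted p = 0.155), so reads of both genes may enter either value to the extent that the counting allowed.

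SNHG19 (ENSG00000260260, chr16:2154792-2155405), the host of SNORD60, measured 34.2, 33.7 and 36.8 FPKM in siC and 26.0, 19.8, 23.8 and 28.2 FPKM in siImp1. Its siImp1 libraries ran from 19.8 to 28.2 FPKM, yet the groups did not overlap (log2 change -0.52, 95% interval -0.81 to -0.24, limma, adjusted p = 0.0359). SNHG8 (ENSG00000269893, chr4:118278703-118285316), the host of SNORA24, measured 140, 137 and 160 FPKM in siC and 115, 112, 118 and 126 FPKM in siImp1. The lowest control stood above the highest siImp1 library (log2 change -0.30, 95% interval -0.49 to -0.11, limma, adjusted p = 0.0537). These 6 members retained 63.5% to 81.0% of their siC mean.

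**Figure D2:**
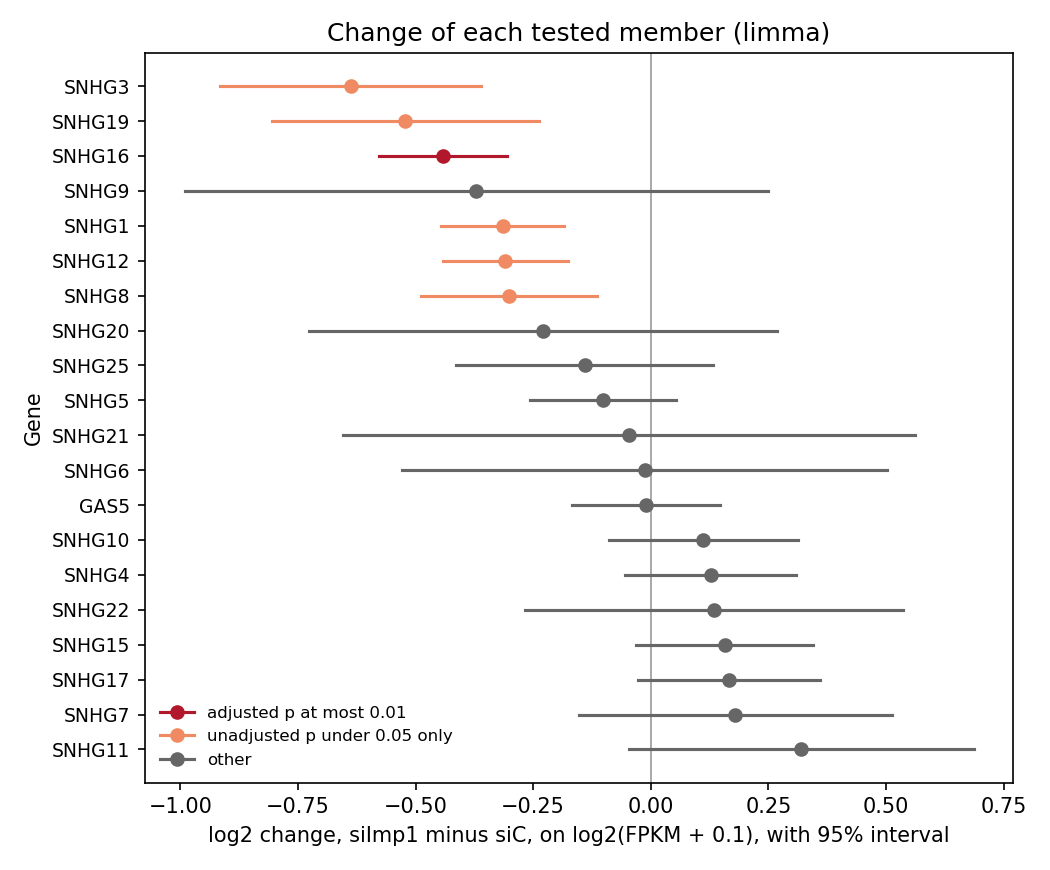
log2 change (siImp1 minus siC, on log2(FPKM + 0.1)) of each tested member, with its 95% interval from limma. SNHG16 is the member past the adjusted threshold, 5 others (SNHG3, SNHG19, SNHG1, SNHG12 and SNHG8) have intervals wholly below 0, and no member has an interval wholly above 0.

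The result for the family changed with siC replicate 3. Without it, 4 members fell at the same threshold (SNHG16, SNHG1, SNHG12 and SNHG3) and 1, SNHG17, rose, while 990 genes fell and 533 rose over all genes. The members themselves scattered more in this library (SD of their deviations 0.224 on the log2 scale) than in the other 6 (0.116 to 0.169).

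GAS5 (ENSG00000234741, chr1:173858559-173868882), named for its accumulation in growth-arrested cells and the host of a series of C/D box snoRNAs, differed between groups by less than the spread of its libraries. It measured 71.1, 69.5 and 62.4 FPKM in siC and 67.9, 64.8, 66.4 and 69.2 FPKM in siImp1. All siImp1 values lay within the range of the controls (log2 change -0.01, 95% interval -0.17 to 0.15, limma, adjusted p = 0.948), and the sign of so small a value turned with the scaling. Without siC replicate 3 it was -0.067. A change of the size seen in SNHG16, SNHG1 or SNHG12 lies outside this interval. The difference in response between GAS5 and these genes was not tested. For SNHG5, another C/D box host, the log2 change was -0.10 (95% interval -0.26 to 0.05), with overlapping groups.

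SNHG6 (ENSG00000245910), the host of SNORD87, measured 54.6, 55.5 and 29.6 FPKM in siC and 44.6, 40.7, 45.4 and 47.0 FPKM in siImp1. Replicate 3 of siC was the lowest of all 7 libraries and the other two controls were the highest, so the log2 change of -0.01 averages over unlike controls (95% interval -0.53 to 0.50, limma, adjusted p = 0.982). Without that library it was -0.31. SNHG7, an H/ACA host with the second highest GC content of the tested members, was also lowest in siC replicate 3: its log2 change of 0.18 became -0.0035 without it.

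Of the 7 members with a higher mean, SNHG15 was the one whose groups did not overlap. Its values were 11.5, 11.3 and 9.92 FPKM in siC and 11.9, 11.6, 11.8 and 13.3 FPKM in siImp1, which are nearly adjacent ranges (log2 change 0.16, limma, adjusted p = 0.272, and 0.09 without siC replicate 3). SNHG17 measured 8.53, 8.36 and 10.2 FPKM in siC and 10.1, 10.1, 10.3 and 9.94 FPKM in siImp1. Replicate 3 of siC lay among the siImp1 values, and the log2 change was 0.17 (limma, adjusted p = 0.259), or 0.26 without that control. The other members with a higher mean were SNHG11 (0.32), SNHG7 (0.18), SNHG22 (0.13), SNHG4 (0.13) and SNHG10 (0.11), each as a log2 change with an interval that included 0. SNHG9 (-0.37), SNHG20 (-0.23), SNHG25 (-0.14) and SNHG21 (-0.05) had lower means, also with intervals that included 0. Without siC replicate 3, SNHG4 was 0.20, SNHG10 0.17, SNHG7 -0.0035, SNHG9 -0.59, SNHG25 -0.045 and SNHG21 -0.13. For SNHG9 the interval ran from -0.99 to 0.25, so a decrease as large as that of SNHG3 was not excluded there.

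**Figure D3:**
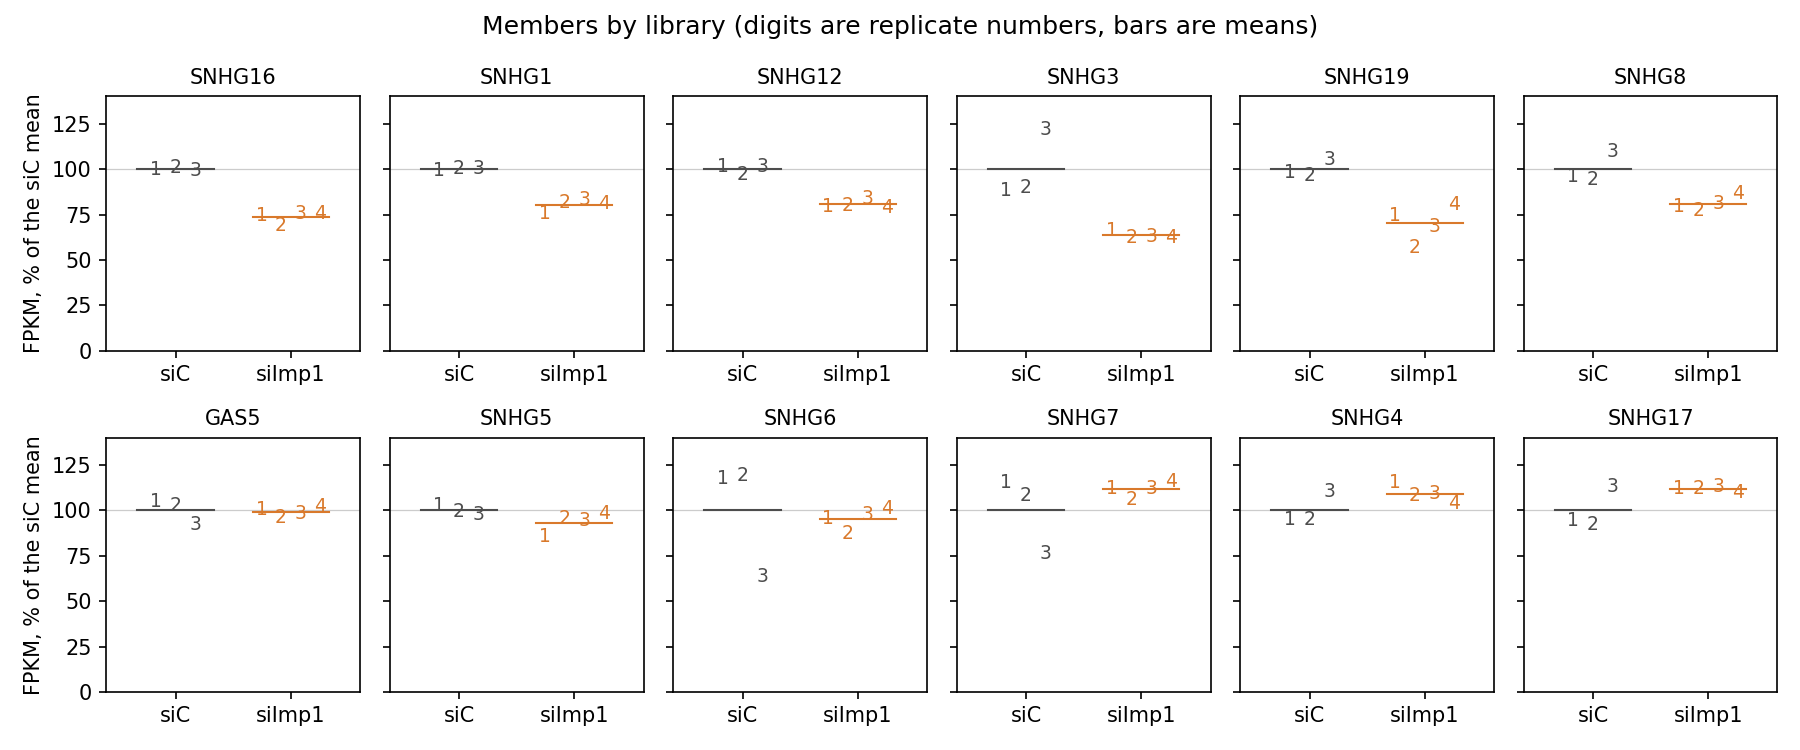
FPKM as a percentage of the siC mean in 12 members, with the replicate number of each library as the symbol and group means as bars. The upper row holds the 6 members with an unadjusted p under 0.05, and in the lower row the third siC library is far below the others in SNHG6 and SNHG7 and above them in SNHG4 and SNHG17.

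The 6 members with an unadjusted p under 0.05 were next set beside the other 14 tested. Their siC means ran from 10.3 to 146 FPKM, against 1.16 to 67.7 FPKM in the others, and at least 108 reads stood behind each value, against at least 15 in the others. Their GC content ran from 39.0% to 56.6% (median 45.8%), within the range of the others (39.2% to 66.5%, median 49.6%). Both snoRNA classes were represented among the RNAs they host. Among the tested members, 8 overlapped a protein-coding gene of at least 1 FPKM in GENCODE v44, 6 on the opposite strand and 2 on the same strand. The libraries were strand-aware, but whether the reads were counted by strand is not given in the sources used here, so the values of these members are uncertain to that extent. This touches, for example, SNHG12 (8 exonic bases shared with TRNAU1AP) and SNHG3 among the lower members, and SNHG7 (1482 exonic bases shared with DIPK1B) among the others. It also touches SNHG4 and SNHG10.

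Host genes differ from the snoRNAs they release in length, stability and place in the cell, so the levels of both were set side by side. GENCODE v44 places 176 snoRNA and scaRNA genes inside members on their strand, 130 of them in SNHG14 and SNHG23. Of the 46 in the other members, 33 were listed at 0 in every library. The remaining 13, in 9 hosts, had at least 20 reads over the 7 libraries. Of these 13, 12 had a lower mean in siImp1, although 1 of the 12 (SNORA71C) was higher without siC replicate 3. The groups did not overlap in 6, all with siImp1 below, against 38 of the 206 snoRNA and scaRNA genes tested (18.4%). One of the 13 fell at the threshold, against 3 of those 206, and 2 of the 13 fell without siC replicate 3. These tests were taken from the same fit over all genes and were added after the values had been seen. The sequences of 4 of the 6, chosen to show 1 from each of 4 hosts, are given 5′ to 3′ (GRCh38), with capitals for the ACA at the 3′ end of H/ACA RNAs, where it was found within 3 bases of the annotated end, and for the TGATGA and CTGA boxes of the C/D RNA.
SNORA74D (in SNHG4, chr5:139276180-139276320, plus strand): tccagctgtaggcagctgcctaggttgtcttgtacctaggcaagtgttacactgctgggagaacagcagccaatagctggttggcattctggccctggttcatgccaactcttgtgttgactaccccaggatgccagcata
SNORA71D (in SNHG17, chr20:38433865-38433998, minus strand): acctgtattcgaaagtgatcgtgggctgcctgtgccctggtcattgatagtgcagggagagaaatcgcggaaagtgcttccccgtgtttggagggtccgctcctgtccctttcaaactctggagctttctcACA
SNORA73B (in SNHG3, chr1:28508559-28508762, plus strand): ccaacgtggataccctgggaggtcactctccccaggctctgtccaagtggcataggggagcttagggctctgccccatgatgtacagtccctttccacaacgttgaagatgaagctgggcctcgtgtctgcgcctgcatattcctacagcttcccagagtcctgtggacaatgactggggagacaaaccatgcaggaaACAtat
SNORD104 (in SNHG25, chr17:64146083-64146152, plus strand): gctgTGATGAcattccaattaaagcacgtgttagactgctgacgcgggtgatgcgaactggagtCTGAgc

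SNORA74D was the small RNA that fell. It measured 105, 107 and 130 FPKM in siC and 60.7, 57.1, 68.5 and 69.9 FPKM in siImp1. Each siImp1 value was lower than each control (log2 change -0.83, SE 0.110, limma, adjusted p = 0.00526, and -0.73 without siC replicate 3). Its neighbour SNORA74A, also in SNHG4, measured 141, 145 and 272 FPKM in siC and 71.6, 67.9, 75.1 and 101 FPKM in siImp1 (log2 change -1.18, limma, adjusted p = 0.0290). The host SNHG4 measured 10.0, 10.0 and 11.7 FPKM in siC and 12.2, 11.4, 11.6 and 11 FPKM in siImp1. Its groups overlapped and its mean was higher in siImp1 (log2 change 0.13, limma, adjusted p = 0.362, and 0.20 without siC replicate 3), so its mean lay on the other side of the control level from the means of both its snoRNAs. In GENCODE v44, SNHG4 shares 118 exonic bases with SIL1 (mean 10.2 FPKM) on the opposite strand. It shares 626 with MATR3 (0.555 FPKM) on the same strand. Reads of these genes may enter the value of SNHG4 to the extent that the counting allowed.

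Host and snoRNA means also went opposite ways in SNHG17. SNORA71D measured 70.8, 69.4 and 108 FPKM in siC and 42.0, 34.6, 30.4 and 45.4 FPKM in siImp1 (log2 change -1.10, limma, adjusted p = 0.0160). Its ratio to the host was 8.29 to 10.5 in siC and 2.96 to 4.57 in siImp1, while the mean of SNHG17 was higher in siImp1. SNORA71D, SNORA71A and SNORA71C lie wholly within exons of SNHG17 in GENCODE v44, so the parts of such a ratio share sequence. How reads on both genes were counted is not given. The log2 changes of the 3 other H/ACA RNAs of this host were -0.63 for SNORA71A, -0.50 for SNORA71B and -0.22 for SNORA71C, with overlapping groups. Without siC replicate 3 they were -0.39, -0.34 and 0.11. These paralogs are similar in sequence, so reads may be divided among them. In SNHG10, SCARNA13 measured 263, 274 and 409 FPKM in siC and 235, 198, 243 and 255 FPKM in siImp1 (log2 change -0.42, limma, adjusted p = 0.184). The value of siC replicate 3 was the highest, and without it the log2 change was -0.21, beside a host at 0.11, or 0.17 without that library. SCARNA13 lies wholly within exons of SNHG10 in GENCODE v44. SNHG10 also shares 301 exonic bases with GLRX5 (mean 9.18 FPKM) on the opposite strand, so its value has the same limit as that of SNHG4.

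In SNHG3 host and snoRNA were both lower. The deposited length of SNHG3, 4088 bases, is that of its merged exons in GENCODE v44, which hold SNORA73A whole. Host and SNORA73B were both highest in siC replicate 3, and whether they are separate measurements was not tested. SNORA73B, the most abundant of the 13, measured 2030, 2213 and 5189 FPKM in siC and 1142, 1000, 1256 and 1355 FPKM in siImp1. Replicate 3 of siC was over 2 times the other controls, so the log2 change of -1.27 (limma, adjusted p = 0.0509) was -0.84 without it, and then passed the threshold (adjusted p = 0.00592). SNORD104, in SNHG25, measured 43.8, 43.7 and 43.6 FPKM in siC and 10.2, 15.2, 27.0 and 26.4 FPKM in siImp1. Its controls were close together and its siImp1 libraries were not (log2 change -1.25, limma, adjusted p = 0.0568, from 289 reads over all libraries), and the log2 change of its host was -0.14. Of the hosts with lower levels, SNHG16, SNHG1 and SNHG12 each held 1 small RNA with enough reads (SNORD1B, SNORD30 and SNORD99), from 52 to 117 reads in all, and in each the groups overlapped. The log2 change of SNORD99 was -0.23, or -0.69 without siC replicate 3. SNORA60, in SNHG11, was the small RNA with a higher mean (log2 change 0.27, or 0.61 without that library), with overlapping groups.

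**Figure D4:**
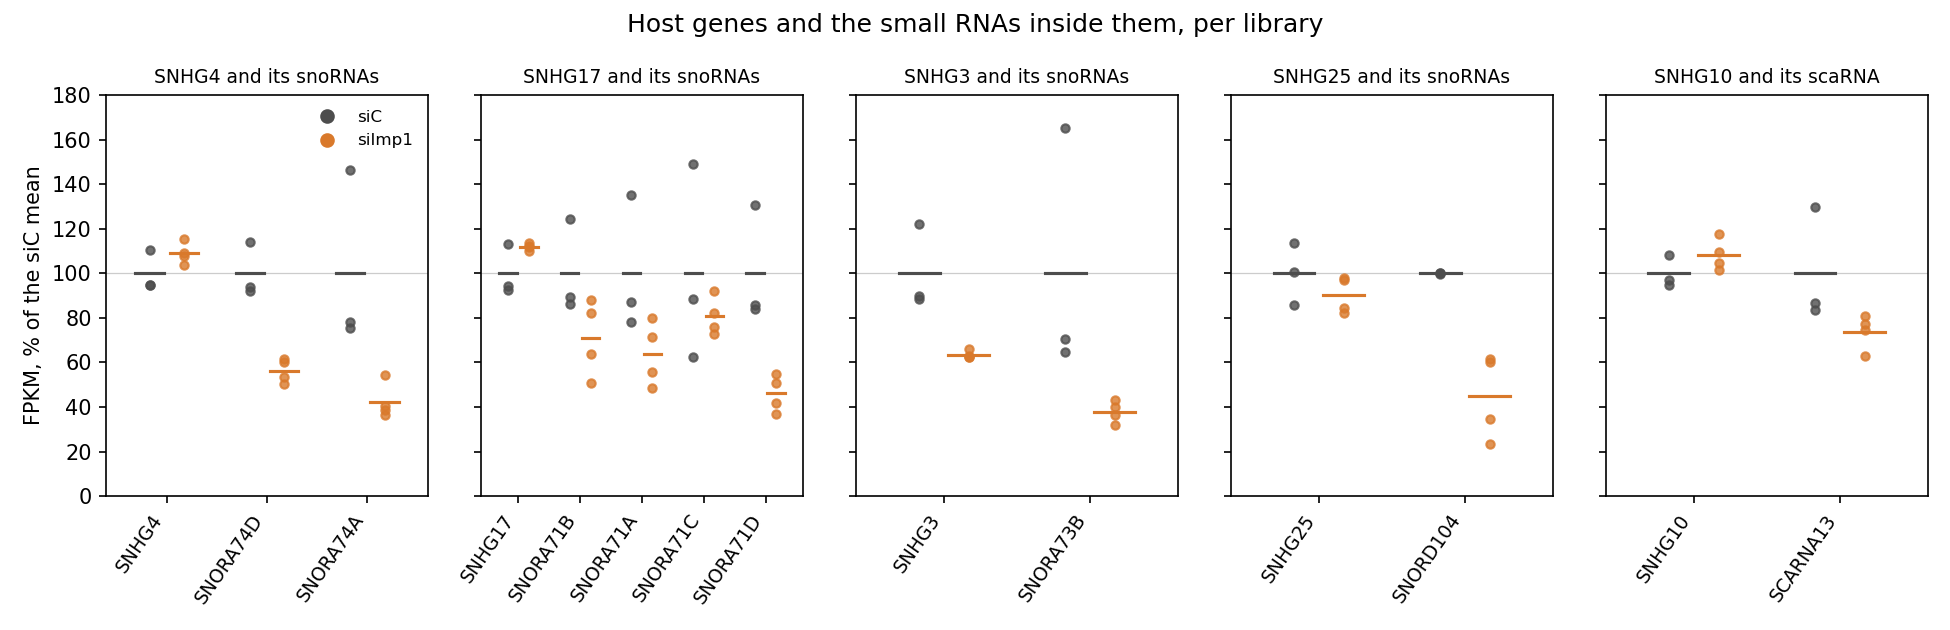
FPKM as a percentage of the siC mean for 5 host genes and the snoRNAs or scaRNA inside them that had at least 20 reads. Points are libraries (grey, siC; orange, siImp1) and bars are means. In SNHG4, SNHG17 and SNHG10 the host is at or above 100% on average in siImp1 while its small RNAs lie below it, and in SNHG3 both lie below 100%.

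GENCODE v44 places no snoRNA inside GAS5. Of those known from its introns, 7 were found in the table by symbol, and all 7 were listed at 0. Of the 33 small RNAs at 0 in the other hosts, 31 overlapped an exon of their host in GENCODE v44, against 6 of the 13 with reads. In SNHG3, SNORA73A (206 bases, wholly within host exons) was listed at 0, while SNORA73B (204 bases, outside host exons) had the highest level. How reads that fall on 2 genes were counted is not given in the sources used here, and the part of this overlap in the zeros was not tested. Reads from a mature snoRNA and from unspliced host RNA cannot be told apart in gene counts. A small RNA listed at 0 is therefore not shown to be absent. Host values in turn may hold reads of introns or snoRNAs and not only of spliced RNA. In SNHG1, for example, the exons of all transcripts in GENCODE v44 merge into 1 block that holds its snoRNAs.

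Other genes with related roles were read from lists written from general knowledge. Of 4 other noncoding hosts, 3 were tested and 1 fell, where 2.28% of all genes fell by this threshold. DANCR, which carries SNHG13 as an alias, measured 99.98, 96.8 and 98.1 FPKM in siC and 75.4, 71.8, 72.7 and 72.5 FPKM in siImp1. The groups were far apart (log2 change -0.43, SE 0.0529, limma, adjusted p = 0.00402), a change close in size to that of SNHG16. This call too was lost with each library other than siC replicate 3 left out. ZFAS1, which hosts SNORD12 and its paralogs, had a log2 change of -0.17 (limma, adjusted p = 0.196) and EPB41L4A-AS1 one of -0.10 (limma, adjusted p = 0.728). The row named MEG8 in the deposited table (ENSG00000258399, MIR493HG in GENCODE v44), which is a different gene from SNHG23, had reads in 1 library and was not tested.

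Protein-coding snoRNA hosts included no gene past the threshold, by which 2.28% of all genes fell and 1.65% rose. In lists this small, a count of 0 does not set them apart from all genes. Among 29 that are not ribosomal protein genes, 6 had an unadjusted p under 0.05 with a lower level and 2 with a higher level, with a median log2 change of -0.09. Among 26 ribosomal protein hosts, 5 were lower and 0 higher, with a median of -0.08. Of 15 mRNAs with a TOP start that do not encode ribosomal proteins, 14 were tested, 3 were lower and 0 higher, and the median was -0.08. EEF1B2, EEF2, TPT1 and RACK1 are in this list and also among the 29 hosts, so the 2 lists are not independent. The shares of lower and higher genes in these 3 lists can be read against 14.8% lower and 11% higher over all genes.

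The machinery that acts on host RNAs and snoRNAs also held no gene past the threshold, to be read against the same 2.28% and 1.65% of all genes. Of 14 factors of nonsense-mediated decay, 4 were lower and 0 higher by the unadjusted p, against 14.8% lower and 11% higher over all genes. By mean, 5 of the 14 were lower and 9 higher (median log2 change 0.07). Of 7 mRNAs known to be degraded by this pathway, 0 passed in either direction, although all 7 had a higher mean in siImp1 (median log2 change 0.21). In each of the 7, siC replicate 3 was the lowest of all libraries, and without it 6 were higher and 1 (ATF4, -0.14) lower, with a median of 0.11. Of 17 proteins of the snoRNA particles and their assembly, 2 were lower and 1 higher by the unadjusted p (median -0.01), to be read against the same shares over all genes. NOP56 and DKC1 are in this list and also among the protein-coding hosts.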

How the data were processed

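Total RNA-seq libraries of Huh-7 cells were grouped by their sample titles. The authors used cutadapt (1.14) for clipping, HISAT2 (2.1.0) for alignment to hg38 and SAMtools (1.5), summarized reads per gene with featureCounts (1.5.3) over an Ensembl annotation and tested genes with edgeR (3.18.1) after TMM normalization (versions per the submitters' processing notes). The deposited table holds 1 FPKM value per gene and library. The log2 fold changes, p-values and FDRs of the authors in the same table were not used. FPKM times gene length gave whole reads (tolerance 0.01) for 100% of the values, and TMM factors from 0.964 to 1.03, so the depth is known.

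As FPKM is not a count, log2(FPKM + 0.1) was tested with limma (3.58.1, R 4.3.3; mean-variance trend, two-sided) over the 14839 genes whose mean reached 1 FPKM, with Benjamini-Hochberg adjustment and the FDR threshold of the study, 0.01. Scripts were tested on simulated data. Genes named singly were the members past the threshold, those with an unadjusted p under 0.05, the 5 with the highest siC mean, the other noncoding hosts and listed genes past the threshold; SNHG4, SNHG5, SNHG7, SNHG15, SNHG17 and the snoRNAs were added after their values were seen. Members and lists were chosen with earlier results of these data known. Positions and overlaps are from GENCODE v44 on GRCh38, whose gene models differ from those the authors used. Alternatives comprised the pseudocount, filter, scaling, voom on the reads recovered, array weights, a replicate block, removal of the GC trend, the threshold and leaving out each library.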

Additional observations from a re-analysis of the deposited data

Results flagged for a closer look

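In 2 of the 20 results examined, 1 of the 4 siImp1 libraries stood apart from the other 3, as its gap to the nearest library divided by the range of the group exceeded Dixon's 95% critical value for 4 samples. Chance gives about 1 such result in 20. For SNHG3, replicate 1 of siImp1 measured 42.7 FPKM and the others 40.3, 40.3 and 40.5 FPKM (ratio 0.881). All 4 values lay below the lowest control. For SNHG21, replicate 4 of siImp1 measured 1.90 FPKM and the others 1.01, 1.05 and 1.08 FPKM (ratio 0.930). The controls of SNHG21 ran from 1.10 to 1.48 FPKM, so that library was the highest of all 7. The siC group, with 3 libraries, was not examined in this way.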

How the results depend on the processing

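The number of members that fell, 1 with all libraries, was 0 with median centring, 0 with quantile normalization, 2 with voom, 6 with array weights and 5 at a threshold of 0.05, and 0 to 4 with 1 library left out (4 without siC replicate 3, 0 without any other). The number that rose, 0, was 1 with array weights and ranged from 0 to 1 with 1 library left out, the 1 being SNHG17 without siC replicate 3. Over all genes, 338 fell and 245 rose, against 206 and 146 with no filter, 1722 and 1022 with array weights, 510 and 464 with the GC trend removed, and 1010 and 703 at 0.05. With 1 library left out, 53 to 990 fell and 66 to 533 rose, with the highest counts without siC replicate 3 and at most 109 and 86 without any other. The median log2 change of the members, -0.07, was -0.12 over members of at least 5 FPKM, -0.16 with array weights, and from -0.14 (without siImp1 replicate 4) to -0.038 with 1 library left out, with -0.13 without siC replicate 3. Array weights gave siC replicate 3 a weight of 0.0986, against 0.641 to 2.84 for the others. The causes were not tested.

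Replicate numbers are shared by the groups, but same-numbered libraries did not deviate together (correlations -0.03, -0.12 and -0.11). These deviations are taken from the group means, so they depend on each other within a group. Whether the numbers pair the libraries cannot be decided from them. The fit with a replicate block, which drops siImp1 replicate 4 from the contrast, called 0 members and 0 genes in either direction, also with the GC trend removed. IGF2BP1 itself, at 19.2% of its siC mean, was thus not called either. The counts of 0 therefore do not show that the members were unchanged. The median of the members was -0.14 with the replicate block and -0.12 with the block and the GC trend removed.

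The 6 members with an unadjusted p under 0.05 were lower under each alternative. Of the members whose value changed sign, GAS5 was 0.019 with median centring, 0.064 with quantile normalization, 0.0086 with the GC trend removed, and from -0.067 to 0.026 with 1 library left out. SNHG6 was 0.016, 0.069 and 0.0015 under the same settings and from -0.31 to 0.14. SNHG7 ranged from -0.0035 (without siC replicate 3) to 0.30, SNHG21 from -0.25 to 0.064, and SNORA71C was 0.11 without siC replicate 3, an alternative chosen for the small RNAs after seeing the data. Among the lists, called genes ranged from 0 to 2 (noncoding hosts), 0 to 4 (coding hosts), 0 to 7 (ribosomal protein hosts), 0 to 2 (TOP mRNAs), 0 to 1 (decay factors) and 0 to 4 (snoRNA particle proteins) with 1 library left out, each lower in siImp1 and each highest without siC replicate 3. With array weights they numbered 2, 7, 8, 4, 5 and 4 lower, and 1 coding host higher. Quantile normalization and the replicate block, also with the GC trend removed, left 0 noncoding hosts. At 0.05, 3 ribosomal protein hosts, 2 TOP mRNAs and 2 decay factors were lower and 1 coding host higher. Voom called 1 ribosomal protein host lower, and with the GC trend removed 1 was lower while 1 coding host and 1 decay factor were higher.

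The least abundant members rested on few reads, 15 at the lowest in 1 library, but intervals were not wide in these alone: the SE was 0.21 for SNHG20 and 0.22 for SNHG6. A count test with edgeR was not run, since the table holds FPKM, and voom on the reads recovered took its place.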
